A study of Mus musculus with 10 samples.

Results

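RNA from mouse tumours treated with free MK1775 and NLG919 together was compared with RNA from tumours treated with free MK1775 alone, to describe what the second drug added. The comparison holds 4 of the 10 libraries of the series, chosen by their treatment labels: 2 of Free-MK1775+NLG919 and 2 of Free-MK1775. The line was 4T1, from a mouse mammary carcinoma, grown under the skin and taken at day 14, and both groups received MK1775. The labels give no dose, schedule or mouse strain, and do not say whether the libraries of a group are from different animals, so p-values measure only the spread between these libraries. The labels call the cells cancer cells. The tumour keratins Krt8 and Krt18 were high, at 292 to 758 and 741 to 1092 units, while the adhesion molecule Epcam lay between 0 and 3.52, and markers of host immune, vessel and muscle cells were also present.

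MK1775 inhibits WEE1, the kinase that holds CDK1 inactive and so delays entry into mitosis. NLG919 inhibits IDO1, the enzyme that opens the conversion of tryptophan into kynurenine. Kynurenine activates the aryl hydrocarbon receptor and dampens T cells, and IDO1 is itself induced by interferon gamma. In 4T1 tumours the cancer cells, infiltrating myeloid cells and T cells all contribute RNA. In bulk tumour RNA, fewer cells of a type and less RNA per cell cannot be told apart.

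Levels are given in nuclear-scaled units, the FPKM of a gene (fragments per transcript length and library size) rescaled so that all rows outside the mitochondrial chromosome sum to 1000000 in each library. Changes are log2 differences after adding 1, Free-MK1775+NLG919 minus Free-MK1775, tested with limma in 1 fit of all 10 libraries with a call at p under 0.05 after Benjamini-Hochberg adjustment over all genes. The Free-MK1775+NLG919 libraries were unlike each other. Mitochondrial transcripts made up 2.88% of summed FPKM in replicate 1 and 47.3% in replicate 2, against 4.82% and 3.44% in Free-MK1775. The depth of nuclear reads, relative to the shallowest library in total depth, was 1.75 and 0.765 in Free-MK1775+NLG919, against 1.53 and 1.52. Across the genes tested, Pearson r of replicate 1 was 0.964 and 0.95 against the Free-MK1775 libraries, but 0.899 against replicate 2 of its own group. Replicate 2 correlated at 0.903 and 0.872 with Free-MK1775, and at 0.919 and 0.922 with both Lipo-MK1775 libraries, the other ones with a high mitochondrial share (64.1% and 56.0%). Genes are not independent replicates, and the libraries differ in depth.

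No gene was called by limma, 0 higher and 0 lower of 15469 tested (0.0%), and the smallest adjusted p was 0.0501. By unadjusted p under 0.05, 1657 genes (10.7%) stood out, 230 higher (1.49%) and 1427 lower (9.22%) in Free-MK1775+NLG919. The libraries of both groups did not overlap for 1083 genes on the higher side (7.0%) and 4758 on the lower side (30.8%). The median change of all genes was -0.39, and it was -0.04 for replicate 1 alone and -0.72 for replicate 2 alone. Under median-of-ratios scaling the median of all genes was -0.01, so the list medians below are given as they are and, where a list is compared with all genes, as relative medians, meaning less the median of all genes in the same comparison. Compared on its own with the Free-MK1775 pair, replicate 1 gave 0 genes called higher and 2 lower (0.0129%), while replicate 2 gave 448 higher (2.9%) and 5225 lower (33.8%); a lone library is assumed to vary like the other groups. The 2 genes of replicate 1 were Ddx1 and Ubtd2, named after their values were seen. Their changes of -2.85 and -3.34 became 0.08 and -0.01 once reads on unnamed transcripts at their loci were added. Replicate 2 thus gave nearly all calls, and the results below are given for each library.

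**Figure D1:**
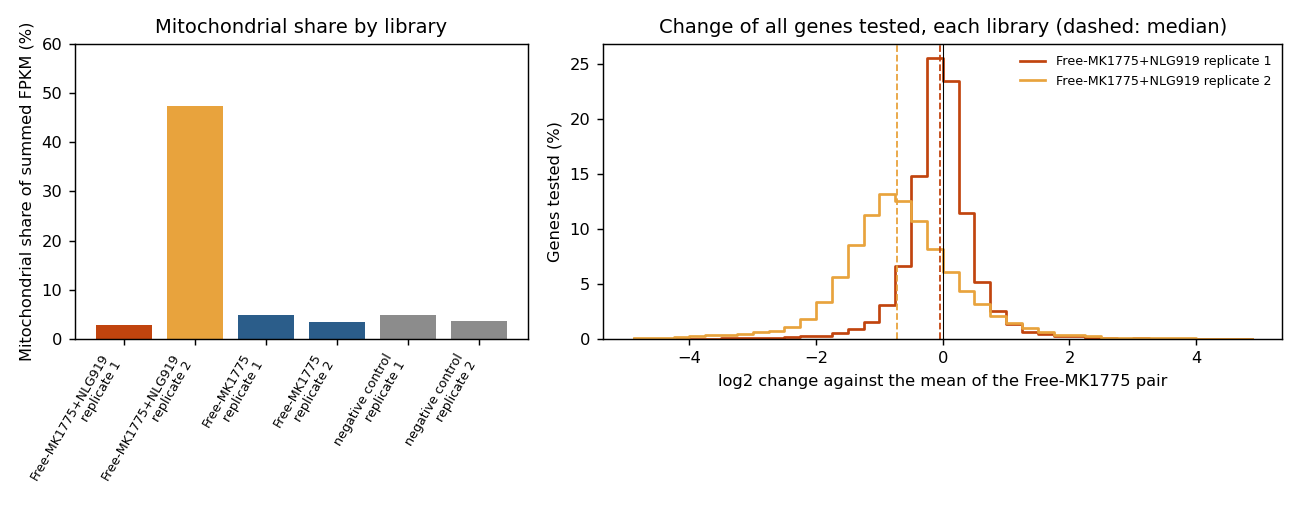
Mitochondrial share of summed FPKM (%) by library on the left, and on the right the distribution over all genes tested of the log2 change of each Free-MK1775+NLG919 library against the Free-MK1775 pair, in bins of 0.25, with dashed lines at the medians. Replicate 1 is centred near 0 (-0.04) with a mitochondrial share of 2.88%, while replicate 2 is centred at -0.72 with a share of 47.3%.

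The 3 proliferin genes tested had lower values in both Free-MK1775+NLG919 libraries. The list they belong to is named for proliferin and placental genes but also holds Megf6, a secreted protein with EGF-like repeats. It had 4 of 6 tested members lower by value and 2 higher, beside 11711 and 3729 of all 15469 genes. At an unadjusted p under 0.05, 3 were lower and 1, Megf6, higher (9.22% and 1.49% of all genes), and none was called. Prl2c3 encodes a proliferin, a secreted hormone of the prolactin family found in growing cells and placenta. It was at 2.01 units in replicate 1 and listed at 0 in replicate 2 of Free-MK1775+NLG919, against 33.5 and 43.4 in Free-MK1775. The groups did not overlap, and the negative control was higher again, at 109 and 98.4. The log2 change was -4.50 (SE 0.51, limma adjusted p = 0.0917), and replicate 1 alone had -3.70. With reads on unnamed transcripts of its locus added, Prl2c3 was called, at -4.52 (limma adjusted p = 0.0348), 1 of 2 genes called in that table (0.0125% of 16018, both lower). Its relative Prl2c2 was listed at 0 in both Free-MK1775+NLG919 libraries, against 4.99 and 4.60 units in Free-MK1775, and Prl2c5 was listed at 0 in both, against 1.11 and 0.956. These genes are near-identical copies, and how reads were split between them is uncertain.

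A cluster of matrix metalloproteinase genes on chromosome 9 was looked at whole after the values of some members had been seen. Of its 10 genes, 7 passed the filter on low values, 0 were called, 5 were lower and 0 higher at an unadjusted p under 0.05, and 6 lay below without overlap, against 9.22%, 1.49% and 30.8% of all genes. These are neighbours in 1 region, not a list fixed for a pathway. Mmp1a, an interstitial collagenase, was at 0.468 and 0.268 units in Free-MK1775+NLG919, against 7.96 and 11.3 in Free-MK1775 (log2 change -2.94, SE 0.45, limma adjusted p = 0.172). Mmp10, a stromelysin that cleaves many matrix proteins, had 17.0 and 13.1, against 51.0 and 57.2 (-1.79, SE 0.34, limma adjusted p = 0.285). Mmp3, the other stromelysin of the cluster, had 162 and 119, against 325 and 427 (-1.42, SE 0.38, limma adjusted p = 0.432). The groups did not overlap for any of these 3, and for each of them the change in replicate 1 alone was more than 1 log2 unit (-2.84, -1.61 and -1.20). Mmp13, a collagenase named after its values were seen, had 92.1 and 35.6 units, against 104 and 165; its change was -0.50 in replicate 1 and -1.85 in replicate 2. Mmp1b, a relative of Mmp1a whose reads may be shared with it, had 0.436 and 0, against 2.51 and 4.31. The macrophage elastase Mmp12 overlapped between groups, at 61.2 and 53.2, against 56.7 and 78.3, and the neutrophil collagenase Mmp8 had 4.74 and 3.92, against 5.64 and 7.96 (limma adjusted p = 0.609). Mmp7, Mmp20 and Mmp27 stayed under 1 unit in these 4 libraries. In the files (GRCm39) Mmp13 starts at position 7272514, Mmp3 at 7445822, Mmp1a at 7464141 and Mmp10 at 7502353.

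All 7 tested genes of the cluster had a negative change in both libraries. With both libraries together, 11711 of all 15469 genes were lower by value, so this count is a description and not a trait of the cluster. The promoters of Mmp1a, Mmp3, Mmp10 and Mmp13 are shown. Those of Mmp1b and Mmp8, which also lay below without overlap, and of Mmp12 are not. Whether those windows hold the letters marked below is not given, so the matches are no result about the cluster. The matches below thus do not set lower genes apart from others. Windows run from 250 bases before to 50 after the start, from RefSeq on GRCm38.p6, all on the plus strand. They are Mmp1a at chr9:7463891-7464190, Mmp3 at chr9:7445572-7445871, Mmp10 at chr9:7502092-7502391 and Mmp13 at chr9:7272264-7272563. Capitals mark the letters TGANTCA, searched on both strands, which the AP-1 factors of the Fos and Jun families are known to bind.
Mmp1a: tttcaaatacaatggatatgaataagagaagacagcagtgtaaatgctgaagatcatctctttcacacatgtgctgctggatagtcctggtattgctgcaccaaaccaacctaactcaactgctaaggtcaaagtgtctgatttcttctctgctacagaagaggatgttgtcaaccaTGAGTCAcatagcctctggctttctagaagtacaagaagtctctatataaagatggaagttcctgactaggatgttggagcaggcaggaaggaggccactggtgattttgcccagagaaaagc
Mmp3: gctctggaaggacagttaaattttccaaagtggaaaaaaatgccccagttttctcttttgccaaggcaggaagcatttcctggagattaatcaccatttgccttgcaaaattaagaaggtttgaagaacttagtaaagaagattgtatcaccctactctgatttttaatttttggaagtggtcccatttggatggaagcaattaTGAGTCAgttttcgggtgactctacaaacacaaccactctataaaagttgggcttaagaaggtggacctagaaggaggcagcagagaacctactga
Mmp10: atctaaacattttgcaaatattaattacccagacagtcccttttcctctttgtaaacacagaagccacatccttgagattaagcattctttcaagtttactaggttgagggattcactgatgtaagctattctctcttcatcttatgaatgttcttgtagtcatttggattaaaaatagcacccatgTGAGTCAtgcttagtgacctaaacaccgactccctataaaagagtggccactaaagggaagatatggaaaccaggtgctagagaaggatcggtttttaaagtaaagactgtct
Mmp13: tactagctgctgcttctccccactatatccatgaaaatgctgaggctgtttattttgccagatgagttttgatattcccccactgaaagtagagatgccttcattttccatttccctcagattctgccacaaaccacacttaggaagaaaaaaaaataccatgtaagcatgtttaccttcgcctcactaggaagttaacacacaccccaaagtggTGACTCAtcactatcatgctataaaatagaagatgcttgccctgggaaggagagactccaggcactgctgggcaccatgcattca
Each window held 1 match, its first base 73 bases before the start in Mmp1a, 46 in Mmp3, 63 in Mmp10 and 35 in Mmp13. The match was TGAGTCA in the first 3 and TGACTCA in Mmp13. Among all 32851 RefSeq windows of this length, 7.81% held the motif. A match is a description, not a site or a cause.

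Immediate early genes, transcription factors and phosphatases that cells switch on within minutes of growth signals and of tissue handling, were mostly lower by value. Of 21 tested, 0 were called, 10 had an unadjusted p under 0.05, all lower, and 17 lay below Free-MK1775 without overlap, against 9.22% and 30.8% of all genes. Their median change was -0.80, with -0.45 in replicate 1 and -1.31 in replicate 2, and relative to all genes it was -0.42 in both libraries together and in replicate 1. Fosl1, the AP-1 subunit FRA1, was at 20.9 and 21.8 units in Free-MK1775+NLG919, against 47.0 and 71.5 in Free-MK1775. Its change was -1.43 in replicate 1 and -1.37 in replicate 2, beside medians of all genes of -0.04 and -0.72. Relative to all genes it was thus smaller in replicate 2. Both libraries together gave -1.40 (SE 0.28, limma adjusted p = 0.307). Jun, the central AP-1 subunit, had 98.9 and 52.4, against 151 and 176, with -0.72 in replicate 1 and -1.62 in replicate 2. Fosb had 3.01 and 2.05, against 6.57 and 11.2, and the transcription factor Myc had 98.4 and 114, against 144 and 172. Not all members did so: Jund had -0.17 and Ier2 0.00. None of the 16 members with a RefSeq promoter window held TGANTCA, which says only that these letters are not in those windows.

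The ATF4 and unfolded protein response list, genes that cells use when amino acids are short or proteins misfold in the endoplasmic reticulum, showed a like pattern. Of 23 tested, 0 were called, 9 were lower and 1 higher at an unadjusted p under 0.05, and 14 lay below without overlap, against 9.22%, 1.49% and 30.8% of all genes. The median change was -0.68, with -0.38 in replicate 1 and -1.09 in replicate 2, and -0.30 relative to all genes. Chac1, an enzyme that degrades glutathione and a known ATF4 target, was at 15.3 and 10.9 units in Free-MK1775+NLG919, against 28.7 and 39.0 in Free-MK1775 and 54.9 and 66.7 in the negative control. Its change was -1.31 (SE 0.29, limma adjusted p = 0.361), -1.08 in replicate 1 alone. Shmt2, a mitochondrial enzyme that converts serine to glycine, had 75.4 and 55.4, against 123 and 115 (-0.87). Asns, which makes asparagine, had 41.7 and 20.7, against 57.2 and 86.5. The factor Atf4 itself overlapped between groups, at 256 and 318, against 314 and 306. Atf5 was higher without overlap, at 221 and 243, against 191 and 145. The member on the higher side at p under 0.05, Slc7a11, depended on which transcripts were counted and is given with the iron genes.

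The promoter of Chac1 is shown because its change was the one with the smallest p in the list, from RefSeq on GRCm38.p6 at chr2:119350992-119351291, plus strand. Capitals mark the letters TGATGNAA, searched on both strands, the core of the amino acid response element that ATF4 with a C/EBP partner is known to bind.
Chac1: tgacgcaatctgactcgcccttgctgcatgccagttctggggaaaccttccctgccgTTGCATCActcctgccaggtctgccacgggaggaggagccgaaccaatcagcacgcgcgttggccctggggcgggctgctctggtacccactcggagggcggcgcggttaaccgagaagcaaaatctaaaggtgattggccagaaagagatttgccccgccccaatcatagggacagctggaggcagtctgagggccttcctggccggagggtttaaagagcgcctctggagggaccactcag
The match, TTGCATCA on the strand shown, began 193 bases before the start. Of 23 members with a window, 8 held the motif, against 3.97% of all 32851 windows. The list is named for ATF4, so a higher share can come from how its members were chosen. That share says nothing about the changes in these libraries, and a match is a description, not a site or a cause. The Mmp10 window held the same letters once, outside its marked match.

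**Figure D2:**
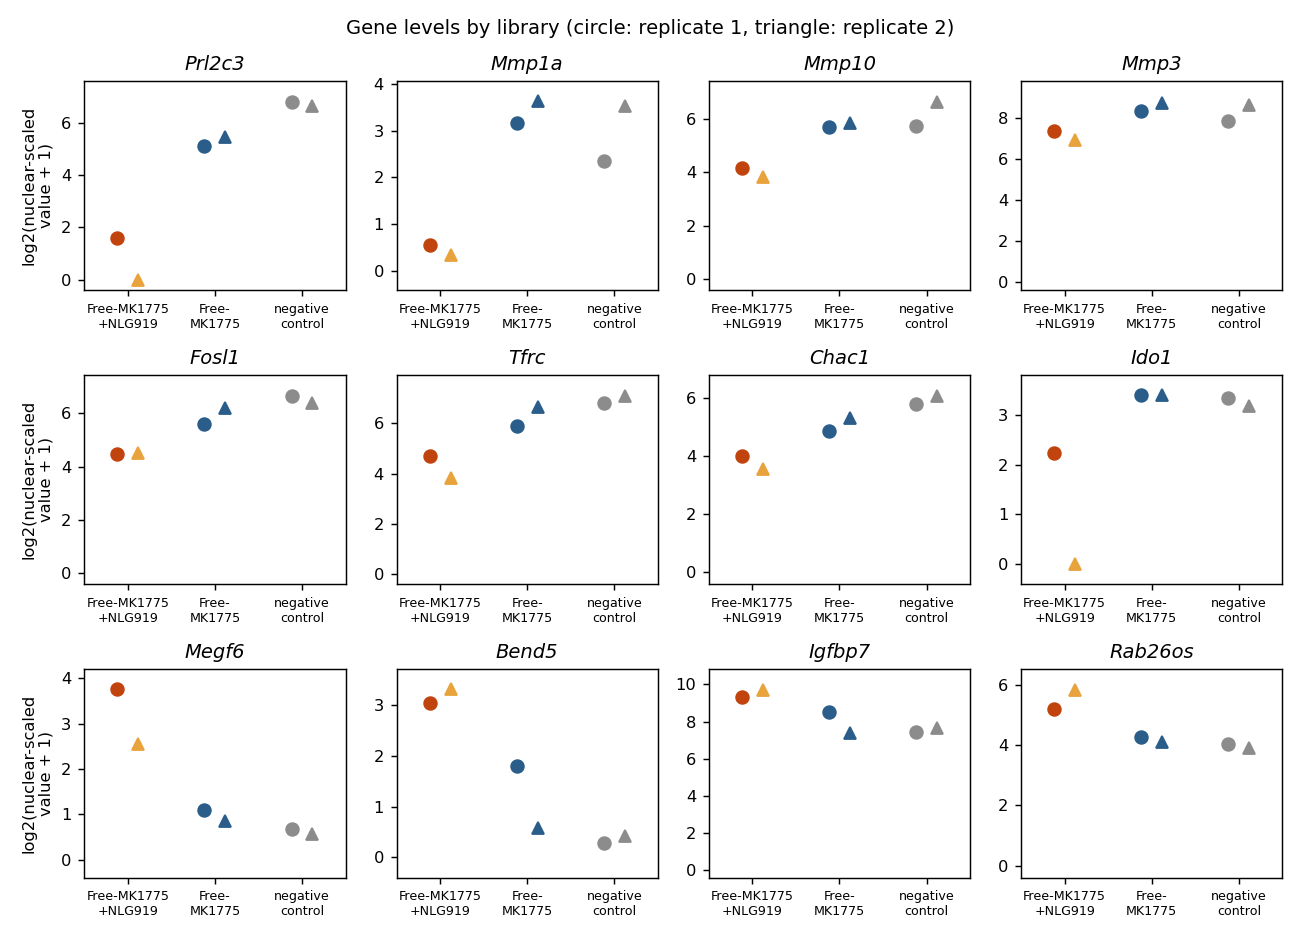
Levels of 12 named genes in each library, as log2(nuclear-scaled value + 1), with Free-MK1775+NLG919 on the left, Free-MK1775 in the middle and the negative control on the right (circles replicate 1, triangles replicate 2). Both Free-MK1775+NLG919 points lie below both Free-MK1775 points for the upper 8 genes and above them for the lower 4; Ido1 is listed at 0 in replicate 2.

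The tryptophan pathway itself was sparse. Ido1, the target of NLG919, was at 3.73 units in replicate 1 and listed at 0 in replicate 2 of Free-MK1775+NLG919, against 9.59 and 9.58 in Free-MK1775 and 9.13 and 8.04 in the negative control. The groups did not overlap (log2 change -2.28, SE 0.65, limma adjusted p = 0.432), and replicate 1 alone had -1.16. Of the 25 listed genes of tryptophan, kynurenine and the aryl hydrocarbon receptor, 15 passed the filter on low values, 3 had an unadjusted p under 0.05, all lower (9.22% of all genes), and none was called. Tiparp, a target of the receptor, was among the 3, at 23.2 and 11.9, against 31.7 and 47.7 (-1.18). The receptor Ahr overlapped between groups, at 38.8 and 17.0, against 32.7 and 20.2. Its target Cyp1b1 also overlapped, at 64.3 and 34.3, against 71.4 and 55.6, and replicate 1 differed from the Free-MK1775 pair by 0.03. Ido2, a relative of Ido1, was at 0.623 and 0, against 0.0210 and 0.224; with unnamed transcripts added its levels were 0.623 and 0, against 2.07 and 4.39. Tdo2 and Kynu, further enzymes of the route, stayed under 1 unit in all 4 libraries.

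T cells are the cells that kynurenine is known to restrain. Their genes differed by library rather than by group: the T and NK cell list had a relative median of 0.37 in replicate 1 and -0.50 in replicate 2, and of 23 tested none had an unadjusted p under 0.05. The summed level of that list was 198 and 57.5 units in Free-MK1775+NLG919, against 157 and 126 in Free-MK1775. Cd8a, the co-receptor of cytotoxic T cells, was at 7.86 and 0.424, against 5.98 and 2.98. The cytotoxic granule protease Gzmb was at 37.0 and 9.17, against 28.7 and 18.0, and the cytokine Ifng at 1.80 and 0, against 1.98 and 1.21. For each of these 3, replicate 1 was at or above the level of the lower Free-MK1775 library and replicate 2 was below both.

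Interferon gamma inducible genes had one of the lowest list medians, and it lay almost wholly in replicate 2. All 24 were lower by value, 0 were called, 6 had an unadjusted p under 0.05 and 14 did not overlap, against 9.22% and 30.8% of all genes; by value, 11711 of all 15469 genes were lower. The median change was -1.60, with -0.12 in replicate 1 and -2.71 in replicate 2; relative to all genes these were -0.08 and -1.99. Gbp2, an antimicrobial GTPase, was at 204 and 32.1 units, against 306 and 325 (-0.63 in replicate 1 and -3.26 in replicate 2). Nos2, the inducible nitric oxide synthase of myeloid cells, had a larger difference in replicate 1, at 15.8 and 4.88, against 21.0 and 56.3 (-1.08 and -2.60). Cd274, which encodes the checkpoint ligand PD-L1, was at 31.9 and 0.145, against 32.7 and 33.3, and at 31.9 and 6.33, against 32.7 and 39.9, with unnamed transcripts added. In replicate 1 the Cd274 level was thus within 1 unit of the lower Free-MK1775 library. The chemokine Cxcl9 was at 1.21 and 0.288, against 2.67 and 0.109; nearly all reads at its locus lay on unnamed transcripts, and with these it was at 133 and 6.98, against 214 and 130.

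Other immune lists were not all alike, and the class II and class I lists also lay below the median of all genes in replicate 2 only. Relative medians were 0.42 in replicate 1 and -0.58 in replicate 2 for the class II and dendritic list, and 0.21 and -0.59 for class I presentation. B and plasma cell genes had 0.25 and 0.31, from 7 tested members. Yet the 13 listed B and plasma cell genes summed to 18.1 and 5.17 units, against 16.8 and 17.5. Under median-of-ratios scaling the relative median of that list, both libraries together, was -0.04, where it was 0.11. Macrophage and monocyte genes had 0.36 and -0.04, neutrophil genes 0.14 and 0.07, and type I interferon stimulated genes 0.40 and 0.16. In replicate 2 these 3 lists lay close to or above the median of all genes. Itgax, which encodes the integrin CD11c of dendritic cells and macrophages, was an exception, at 10.4 and 11.2 units, against 25.4 and 22.2 (-1.11 and -1.02; both libraries -1.07, limma adjusted p = 0.432). The class I heavy chain H2-K1 was at 361 and 328 on its named transcripts, against 1009 and 952. With unnamed transcripts added it was at 4453 and 1315, against 3026 and 2278, and the groups overlapped. Mast cell and basophil genes had relative medians of -0.59 and -0.47. Of 13 tested, 9 lay below without overlap (30.8% of all genes), but 1 had an unadjusted p under 0.05 (9.22% of all genes) and none was called. Tpsab1, a mast cell tryptase, had 6.67 and 6.81 units, against 17.5 and 35.2, and Cpa3, a mast cell carboxypeptidase, had 0.541 and 0.979, against 2.41 and 7.29. Their levels in the negative control were higher, 86.1 and 77.7 for Tpsab1. Neutrophil calprotectin S100a8 overlapped between groups, at 338 and 793, against 283 and 483.

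**Figure D3:**
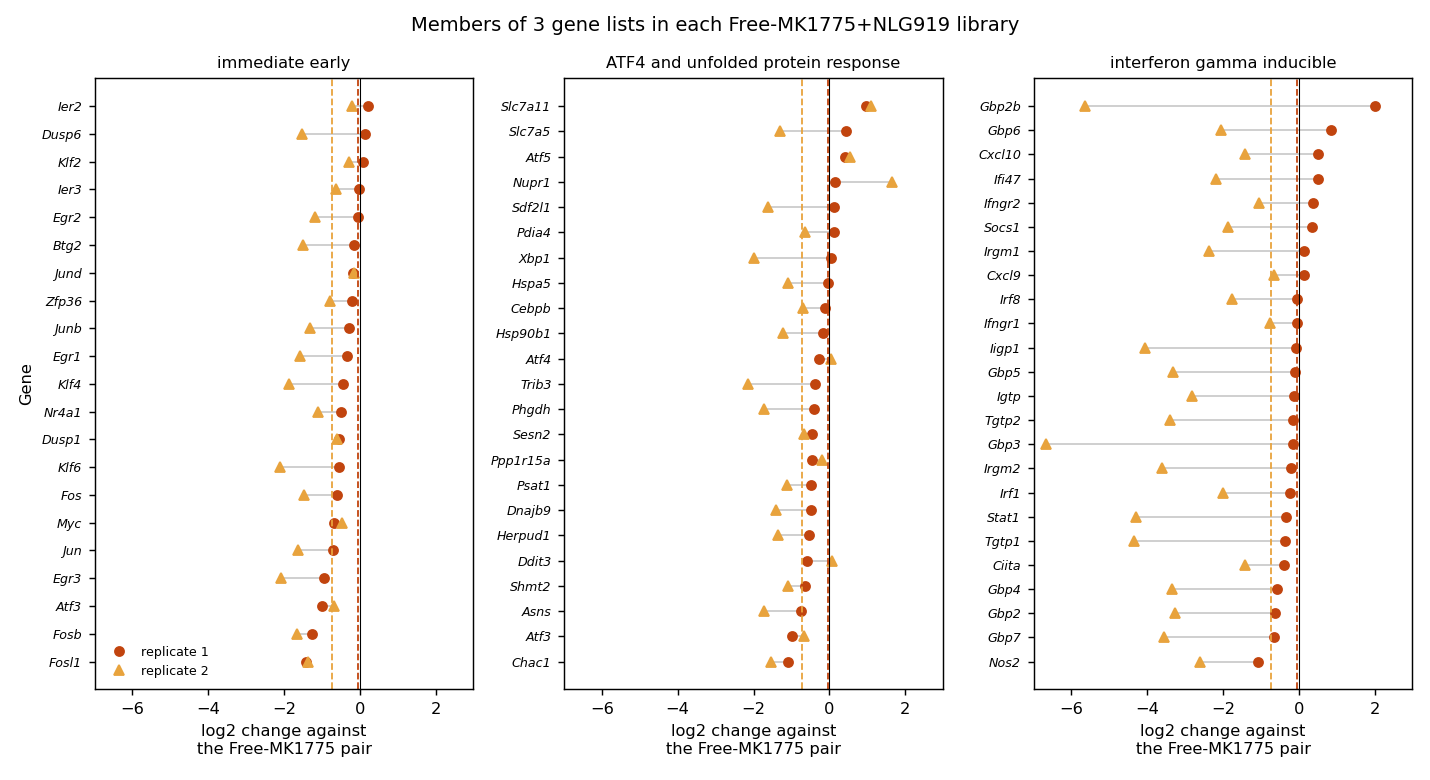
Log2 change of each tested member of 3 gene lists against the Free-MK1775 pair, replicate 1 as circles and replicate 2 as triangles, with dashed lines at the medians of all genes tested. Immediate early and ATF4 members mostly lie left of 0 in both libraries, with medians in replicate 1 of -0.45 and -0.38, while interferon gamma inducible members lie near 0 in replicate 1 (median -0.12) and far left in replicate 2 (median -2.71).

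Genes of the step that MK1775 acts on were lower mainly in replicate 2. Wee1 was at 16.8 and 8.08 units in Free-MK1775+NLG919, against 23.1 and 29.5 in Free-MK1775 and 29.3 and 31.8 in the negative control. The groups did not overlap (-1.10, SE 0.36, limma adjusted p = 0.432), with -0.61 in replicate 1. Its partner kinase Pkmyt1 overlapped, at 20.8 and 7.63, against 19.2 and 23.8. Cdk1, the kinase that both restrain, was at 45.4 and 25.5, against 49.5 and 44.6, and its cyclin Ccnb1 at 44.0 and 14.1, against 53 and 77.6. Chek1, a checkpoint kinase of the same switch, was at 20.5 and 10.9, against 30.9 and 31.6. Of 18 genes of this switch, 6 had an unadjusted p under 0.05, all lower, and 11 did not overlap, against 9.22% and 30.8% of all genes, with relative medians of -0.15 in replicate 1 and -0.68 in replicate 2. All 26 mitosis genes were lower by value, beside 11711 of all 15469 genes. Of these 26, 11 had an unadjusted p under 0.05, against 9.22% of all genes. With unnamed transcripts added 17 had, against 11.5%. The relative medians of the mitosis list were -0.32 in replicate 1 and -1.28 in replicate 2. Cdc20, the activator of the anaphase-promoting complex, had 69.9 and 27.4, against 74.8 and 126. Replication and DNA damage lists had relative medians of -0.17 and -0.19 in replicate 1 and -0.69 and -0.66 in replicate 2. The p53 target Cdkn1a, which stops the cycle, overlapped between groups, at 67.1 and 43.6, against 64.0 and 79.6.

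The title of the series names ferroptosis, in which iron-dependent oxidation of membrane lipids kills the cell. Tfrc, the transferrin receptor that brings iron into cells, was at 25.1 and 13.2 units in Free-MK1775+NLG919, against 59.0 and 98.8 in Free-MK1775 and 110 and 135 in the negative control. It was lower in both libraries, by -1.57 and -2.45 (both together -2.01, SE 0.36, limma adjusted p = 0.236), and -2.29 with unnamed transcripts added. The ferritin subunits, which store iron, differed little: Fth1 was at 5658 and 4788, against 6233 and 5813, and Ftl1 at 5792 and 5826, against 4930 and 5464. Gpx4, which repairs oxidised lipids, was at 603 and 770, against 802 and 798 (-0.23, SE 0.20). Acsl4, which loads polyunsaturated lipids, overlapped between groups, at 102 and 22.4, against 84.7 and 70.2. Slc7a11, the cystine importer, was at 1.69 and 1.93 on its named transcripts, against 0.440 and 0.317. With unnamed transcripts added it was at 11.3 and 2.90, against 5.26 and 7.58, and the groups overlapped. The quinone reductase Aifm2 and the haem oxygenase Hmox1 also overlapped. Ferroptosis defence genes had 2 of 23 lower and 1 higher at p under 0.05, against 9.22% and 1.49% of all genes, and a relative median of 0.03. The driver list had 5 of 25 lower at an unadjusted p under 0.05, against 9.22% of all genes, and a relative median of -0.08. By value 21 of these 25 were lower, beside 11711 of all 15469 genes. Chac1 and Tfrc, described above, are 2 of its members.

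A smaller set stood higher in both libraries. Megf6, a secreted protein with EGF-like repeats, was at 12.6 and 4.84 units in Free-MK1775+NLG919, against 1.14 and 0.810 in Free-MK1775 (2.18, SE 0.43, limma adjusted p = 0.292). Bend5, a BEN domain repressor, was at 7.17 and 8.96, against 2.46 and 0.501. Igfbp7, a secreted binding protein of insulin-like growth factors, was at 644 and 823, against 363 and 167 (1.56, SE 0.37, limma adjusted p = 0.378). Tbx2, a T-box repressor, was at 9.15 and 5.36, against 1.91 and 0.498, and Tmem223, a protein of the inner mitochondrial membrane, at 20.9 and 25.4, against 5.09 and 3.95. Prxl2a, a relative of the peroxiredoxins, was at 58.1 and 42.5, against 26.6 and 13.3. None of these 6 overlapped between groups or moved by over 1.5 times with unnamed transcripts added. The opposite-strand transcripts Rab26os (35.9 and 56.1, against 18.2 and 16.2) and Sp3os (14.7 and 14.3, against 6.46 and 2.60) were higher too; without a stated strand setting, reads from their sense partners cannot be told apart. The row of the microRNA locus Mir703 was at 462 and 388, against 199 and 179, and its reads need not come from the mature microRNA.

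On the lower side the same held for Tgif2, a homeobox repressor (6.26 and 7.66, against 22.3 and 21.6), and Pde2a, a cyclic nucleotide phosphodiesterase (0.478 and 2.31, against 9.61 and 9.60). Calr4, a relative of the chaperone calreticulin, was at 0.259 and 0, against 4.01 and 2.80 units. Slc9b1, a sodium and proton exchanger, was at 0.133 and 0, against 3.88 and 10.9. Levels of Calr4 and Slc9b1 in Free-MK1775+NLG919 lay below 1 unit in both libraries.

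For many genes the result depended on which transcripts were counted. The assembly left some transcripts without a symbol, and these held 12.3% and 16.7% of nuclear FPKM in Free-MK1775+NLG919, against 12.0% and 12.5% in Free-MK1775. Adding them to the symbol at their locus moved the change by over 1.5 times for 1705 of 15469 genes (11%), and for 14 of the 20 genes that the naming rule took from named transcripts alone. Of the 10 higher ones, 6 moved: Hnrnpa2b1, Rbm12b2, Mast4, Trp53i11, Hcfc1r1 and Pdgfrb. Pdgfrb, a receptor of pericytes and fibroblasts, was at 13.7 and 6.94 units, against 1.20 and 0, and at 26.4 and 15.2, against 16.0 and 13.7, with them. Hnrnpa2b1, an RNA-binding protein, went to a log2 change of 0.28 with them, where named transcripts gave 1.24, and Rbm12b2 to -0.15, where they gave 2.68. Of the 10 lower ones, 8 moved: Tagap1, Arl6ip5, Usp37, Sec24a, Pcnt, Slc39a10, Pak1 and Cap1. Tagap1, which had the smallest p of all, was listed at 0 in both libraries, against 5.77 and 8.13; with unnamed transcripts it was at 17.1 and 7.69, against 15.5 and 18.8. Usp37, a deubiquitinase, was at 0.0776 and 0.00285, against 8.71 and 9.96, and at 11.3 and 3.73, against 12.7 and 18.3. The zinc importer Slc39a10 was at 2.54 and 0, against 28.8 and 23.5, and at 26.3 and 8.11, against 35.0 and 44.0. With unnamed transcripts added, limma called 0 genes higher and 2 lower, and 2147 of 16018 had an unadjusted p under 0.05 (13.4%), 299 higher (1.87%) and 1848 lower (11.5%); 7.58% lay higher and 30.9% lower without overlap. Replicate 1 alone then gave 0 calls, and replicate 2 alone 877 higher (5.48%) and 6934 lower (43.3%). The naming rule, repeated with these transcripts, took Megf6, Mir703, Bend5, Rab26os, Prl2c3 and Mmp1a again.

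**Figure D4:**
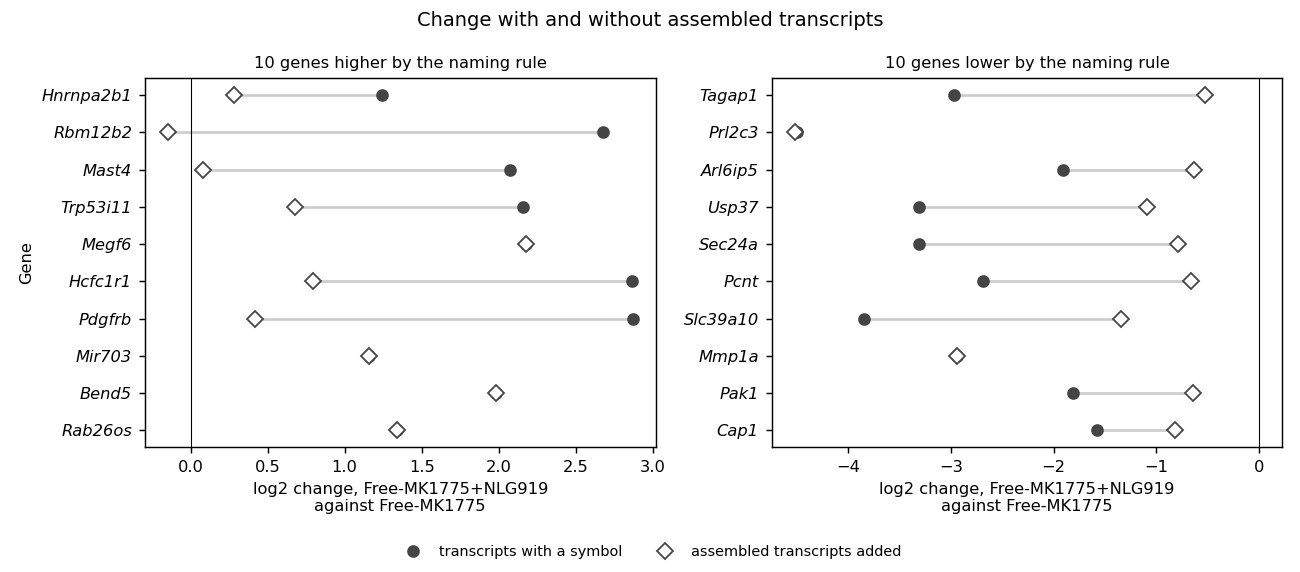
Log2 change between Free-MK1775+NLG919 and Free-MK1775 for the 20 genes of the naming rule, from transcripts with a symbol (filled) and with unnamed assembled transcripts added (open). In 14 of the 20 the open point lies over 1.5 times away, nearer to 0, while Megf6, Mir703, Bend5, Rab26os, Prl2c3 and Mmp1a keep their place.

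Host tissue differed from library to library. The 15 skeletal muscle genes summed to 676 and 55.2 units in Free-MK1775+NLG919, against 77.4 and 642 in Free-MK1775, and 8 of them, among them the actin Acta1 and the myosin Myh4, were listed at 0 in Free-MK1775+NLG919 replicate 2. The relative medians were 1.63 and -1.72. The 14 epidermis genes summed to 8.39 and 5.68, against 8.19 and 441, so that of these 4 libraries only replicate 2 of Free-MK1775 had them at a high level. Without it the list median relative to all genes was 0.33, where all libraries gave -1.22. That 0.33 only mirrors the median of all genes in the same fit, -0.33, since most members are listed at 0 in the other 3 libraries. It does not say that these genes were higher. The keratin Krt10 was at 5.09 and 4.03, against 6.30 and 129, and the cornified envelope genes Lor and Flg were listed at 0 in the other 3 libraries. Endothelial genes summed to 327 and 203, against 431 and 358, and 8 of 16 lay below without overlap (30.8% of all genes) while 1 had an unadjusted p under 0.05 (9.22%), though the median relative to all genes was -0.12 and became 0.15 without Free-MK1775 replicate 1; the vessel adhesion molecule Pecam1 was at 17.6 and 11.8, against 43.3 and 39.0. Fibroblast and matrix genes had relative medians of 0.02 and -0.86. Erythroid genes summed to 340 and 897, against 728 and 581. The part of these cells in any result above was not tested.

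Ribosomal and mitochondrial transcripts ran the other way in replicate 2. Of 28 cytosolic ribosomal protein genes, 25 were higher by value, beside 3729 of all 15469 genes. Of these 28, 7 lay above and 2 below without overlap, against 7.0% and 30.8% of all genes. Their relative medians were 0.02 in replicate 1 and 1.21 in replicate 2, and 0 had an unadjusted p under 0.05. Their sum was 55997 and 77616 units, against 57508 and 55478. All 15 mitochondrially encoded genes were higher on average, with relative medians of -0.40 and 4.57. The oxidase subunit mt-Co1 was at 8435 and 267011, against 14690 and 12532, so that replicate 1 was below and replicate 2 above both Free-MK1775 libraries.

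**Figure D5:**
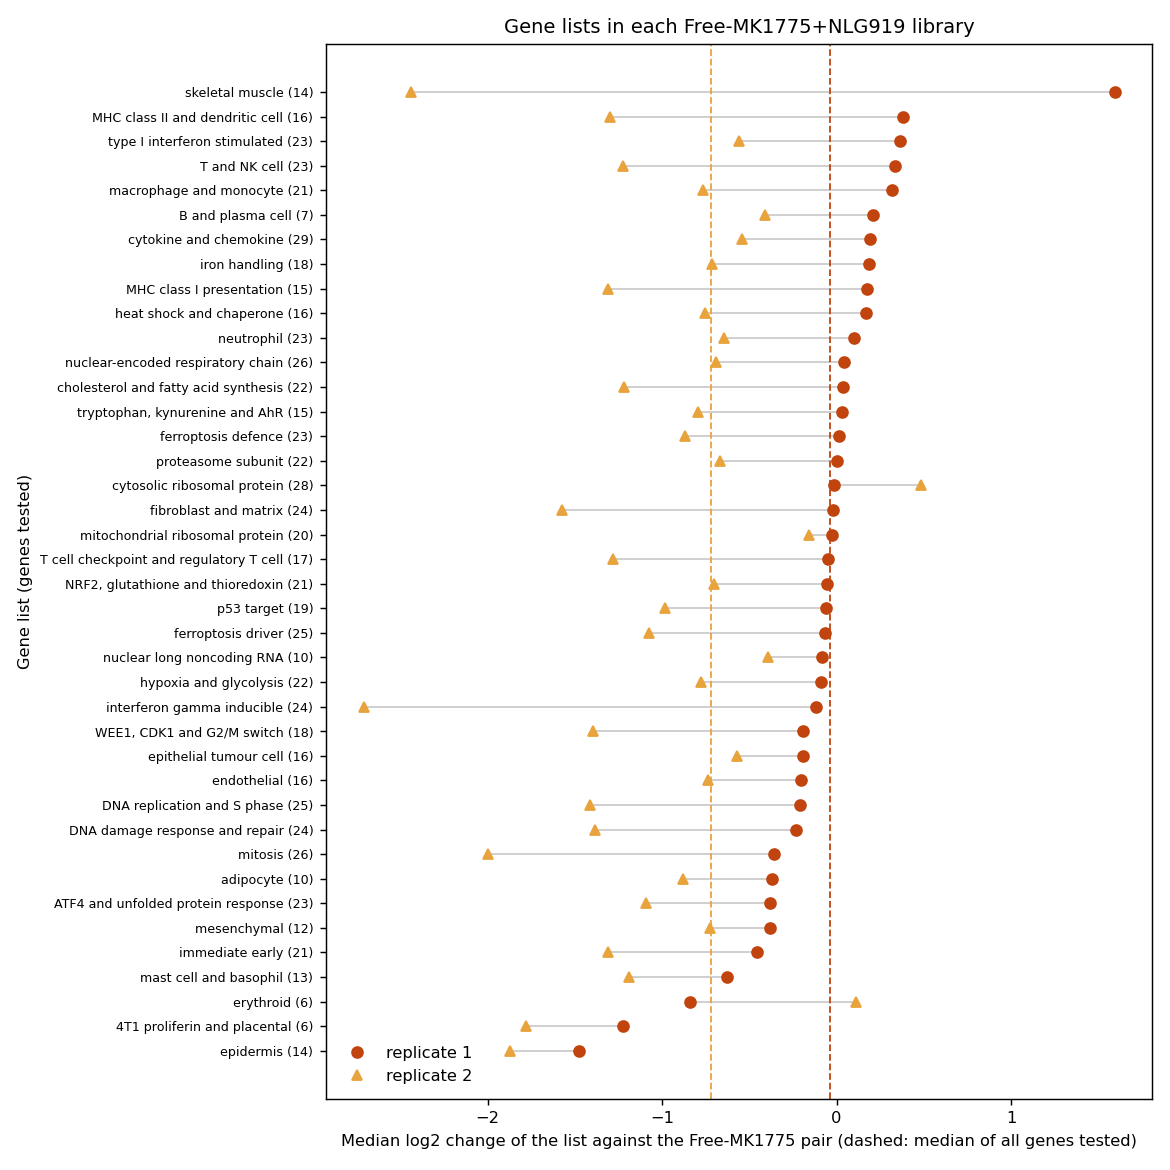
Median log2 change of 40 gene lists against the Free-MK1775 pair, for replicate 1 (circles) and replicate 2 (triangles) of Free-MK1775+NLG919, with the number of genes tested in brackets and dashed lines at the medians of all genes (-0.04 and -0.72). Among others, the proliferin, epidermis, mast cell, immediate early, ATF4 and mitosis lists have both points left of the dashed line of their own library, and skeletal muscle spans 1.60 to -2.44.

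Whether adding NLG919 differed between the free and the Lipo form was tested in the same fit, as the change in the free form minus the change from Lipo-MK1775 to Lipo-MK1775+NLG. This difference was called higher for 224 genes (1.45%) and lower for 3025 (19.6%), and the median over all genes was -1.12. In the Lipo form alone 712 genes were called higher (4.6%) and 114 lower (0.737%). As values only, since the free-form change that named them is part of this difference, Fosl1 had -1.40 in the free form and 1.17 in the Lipo form, Tfrc had -2.01 and 0.43, and Chac1 had -1.31 and 0.76. The mitochondrial share was 2.98% and 3.49% in Lipo-MK1775+NLG, against 64.1% and 56.0% in Lipo-MK1775, so the treatment and that share cannot be told apart. The number of calls also changed when a single library was left out. It rose without either Free-MK1775+NLG919 library and fell steeply without any other. The fall came also without a negative control library, which is not part of this difference, while the median over all genes stayed at -1.12. A loss of calls thus does not show that the difference rests on the library left out. The median was -1.44 without Free-MK1775+NLG919 replicate 1 and -0.79 without its replicate 2.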

How the data were processed

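RNA-seq of 10 mouse tumour libraries, 5 groups of 2, was used; 4 libraries carry the comparison. The authors deposited FPKM per transcript in 1 table. The submitters' processing notes name FastQC, Trim Galore, HISAT2, StringTie and GRCm39, without versions; read counts and the strand setting were not given, so only relative depth could be had, from the step that 1 read makes in low values. Here the deposited FPKM of transcripts with a symbol were summed per symbol (52324 symbols) and scaled to 1000000 per library over all rows outside the mitochondrial chromosome, which removes the mitochondrial share but not a different makeup of nuclear RNA. Of 161762 transcripts, 21051 had no symbol; as an alternative 16891 were added to the symbol overlapping them most, and 4160 were left out.

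Genes at 1 unit or more in at least 2 libraries (15469) were tested as log2(value + 1), which understates changes of low genes, with limma 3.58.1 in R 4.3.3 (group means, variance trend, two-sided, Benjamini-Hochberg adjustment). The procedure was tested on simulated data. Each Free-MK1775+NLG919 library was also compared alone. Named genes were, per direction, the 10 of smallest p among genes with a change of at least 1 on the log2 scale, no overlap between groups and a mean of 5 units or more in the higher group, since none was called, plus 2 of smallest p from each of 42 gene lists and a list of followed genes; predicted genes were not named. Not all of these are printed. Mmp13 and the other metalloproteinase genes within 1 Mb of Mmp3, Prl2c5, Fosb, Myc, Jund, Ier2, Asns, Atf4, Atf5, Acta1, Flg, Epcam, Krt8, Krt18 and mt-Co1 were added outside that rule. The members and lists were chosen with earlier results of these data known, and lists got no test of their own. The alternatives were 23 planned and 5 chosen after seeing the data, besides the repeat of the naming rule.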

Additional observations from a re-analysis of the deposited data

Results flagged for a closer look

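Of 57 genes named by the rule or followed, 31 passed the limma test of a difference between the free and the Lipo form in the change on adding NLG919 (adjusted p between 0.0138 and 0.0498). Of 33 genes of the naming rule 25 passed, but these were named for a small p in the free form, which is part of the difference tested, so their values are a description and support nothing. Of the 24 followed only, 6 passed (25%), beside 21.0% of all genes, which is no result about these genes. The difference, free form minus Lipo form in log2 units, was positive for several genes: 2.10 for Hnrnpa2b1, 2.30 for Rbm12b2, 3.70 for Mast4, 3.33 for Trp53i11, 3.57 for Hcfc1r1, 2.82 for Mir703, 1.98 for Bend5 and 2.45 for Tbx2. Slc7a11, the cystine importer, had 1.69. It was -4.30 for Prl2c3, -3.86 for Mmp1a, -3.38 for Mmp10, -2.57 for Fosl1, -2.44 for Tfrc, -2.06 for Chac1 and -3.82 for Pde2a, and among cell cycle genes it was -1.97 for Wee1, -2.22 for Pkmyt1 and -2.38 for Ccnb1. The others were -2.98 for Tagap1, -3.24 for Arl6ip5, -6.22 for Usp37, -6.98 for Sec24a, -4.77 for Pcnt, -3.71 for Slc39a10, -3.13 for Pak1, -2.62 for Cap1, -1.97 for Tgif2, -4.71 for Calr4, -3.12 for Slc9b1 and -2.83 for Cyp1b1.

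All 31 had the same sign when any 1 of the 10 libraries was left out. They were chosen for passing this same test, so a kept sign is close to fixed in advance and supports nothing. Calls among them were lost without most single libraries, as they were over all genes. With unnamed transcripts added, 26 of the 31 were called, beside 545 higher and 6070 lower of all 16018 genes. The exceptions were Hnrnpa2b1, Rbm12b2, Mast4, Trp53i11 and Slc7a11. This count is a description too, since the 31 were chosen by the same test on named transcripts. The mitochondrial share of the Lipo-MK1775 libraries and their treatment cannot be told apart.

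Transcripts without a symbol, which enter no gene value of the main comparison, held 16.7% of nuclear FPKM in Free-MK1775+NLG919 replicate 2, above the 14.2% and 13.3% of the negative control libraries and below the 19.6% and 18.4% of the Lipo-MK1775 libraries.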

How the results depend on the processing

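No gene was called in the comparison as reported, and few were under most settings. Higher calls were 1 with no filter on low values and 877 with unnamed transcripts added and Free-MK1775+NLG919 replicate 2 alone. Lower calls were 2 each with pseudocount 5, quantile normalization, unnamed transcripts added and the 7 libraries of low mitochondrial share. They were 3 with no filter, 1 each with the deposited FPKM, with no variance trend and with median-of-ratios scaling without Lipo-MK1775 and Free-MK1775+NLG919 replicate 2, and 6934 with unnamed transcripts and replicate 2 alone. Leaving out 1 library gave 0 to 448 higher and 0 to 5225 lower, the highest without Free-MK1775+NLG919 replicate 1. The cause was not tested.

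The replicate block gave 0 higher and 0 lower calls, and so did the crossed replicate block; nothing in the labels pairs the numbers, and same-numbered deviations correlated at -0.117.

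Over the planned settings, 21 of 130 named or followed genes and 27 of 42 list medians relative to all genes changed sign at least once; over the added ones, 31 and 19. Those of the immediate early, ATF4, mitosis and interferon gamma lists did not, though the last came to -0.07. Over all settings Prl2c3 lay between -5.32 and -2.87, Mmp1a between -3.53 and -1.44, Tfrc between -2.71 and -1.51, Fosl1 between -1.70 and -0.94 and Megf6 between 1.14 and 2.79. Replicate 2, with the lowest nuclear depth of the 4, limits what can be said of genes near 1 unit.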
